A study of Morchella importuna with 4 samples.

Results

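The superoxide dismutase genes of the morel Morchella importuna were followed between the sclerotial and the hyphal area of the plate. They were taken as every row of the expression table whose gene description or best protein match reads superoxide dismutase or Sod1 copper chaperone, which gave 7 of 11599 genes. Genes are named by the identifiers of that table, and the JGI number given with each of the 7 is the protein number that ends its JGI name there. The strain was grown on potato dextrose agar at 20 °C, and at the sclerotial initiation stage mycelium was collected from the centre of the plate, where micro-sclerotia form (SII), and from the margin, where normal hyphae grow (SIO). There were 2 libraries per area, each from 2 pooled individuals, and both areas carry the same strain, medium and temperature. An area is a zone of the plate and not a sorted cell type, so fewer cells of one kind and less RNA per cell cannot be told apart. The study calls the libraries biological repeats, but no label says how the cultures behind them were kept apart, so the p-values measure only the spread between these libraries, which may be technical.

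Superoxide dismutases (SODs) turn the superoxide radical, a by-product of respiration and of oxidase enzymes, into hydrogen peroxide and oxygen. The hydrogen peroxide is then removed by catalases and peroxidases. In fungi the best known forms are a copper and zinc enzyme, mainly of the cytosol, which receives its copper from a dedicated chaperone, and manganese enzymes, mainly of the mitochondrion. Since oxidative stress is held to trigger the formation of sclerotia, the comparison asks whether genes that handle superoxide differ between the area that forms them and the one that does not.

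The 7 genes were not of one kind. gene_10204 (JGI.538428), named sod3 in the study, and gene_7182 (JGI.606050) are described as superoxide dismutases without a metal, and the best match of gene_7182 is a mitochondrial precursor. gene_10633 (JGI.555052) is described as a manganese enzyme, gene_7111 (JGI.606002) as a manganese and iron enzyme, and gene_3140 (JGI.18387) as a Cu,Zn enzyme-like protein. gene_1142 (JGI.531882), sod7, is the copper chaperone of superoxide dismutase 1 and no dismutase itself. gene_887 (JGI.480404), sod8, is described as an NHL repeat-containing protein, and it entered through its best match alone, a sequence of the brown alga Ectocarpus siliculosus recorded as superoxide dismutase. Its 2 annotations thus go against each other, and it is kept apart below.

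Values are FPKM, the fragments mapped to a gene divided by its length and by the size of the library, so that genes can be set against each other within a library. Whole reads per library were recovered from the table and totalled between 23108142 and 27993281. The SIO libraries lay close together and the SII libraries further apart, and SII replicate 2 was the nearer of the pair to the SIO mean for 65.3% of the 8906 genes tested. The same was true of 4 of the 6 tested SOD genes, all but gene_7182 and gene_10633. The part of this gap between the SII libraries in the results was not tested.

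The hyphal area held more SOD transcript than the sclerotial area, and 1 gene made up most of it. The FPKM of the 7 genes summed to 313 and 413 in SII replicates 1 and 2, and to 927 and 936 in SIO replicates 1 and 2. The mean was 363 ± 70.6 in SII and 932 ± 6.14 in SIO (SD, n = 2 libraries per area), 2.57-fold higher in SIO, with no overlap between the areas. An exact two-sided permutation test gave p = 0.333, the smallest value that 2 libraries against 2 can give. Over the 5 genes annotated as dismutases alone, without gene_887 and the chaperone, the sum was 319 ± 80.1 in SII and 881 ± 3.79 in SIO (SD, n = 2). This smaller set was chosen after the values were seen. Without sod3, the other 4 dismutase genes summed to 208 ± 9.47 FPKM in SII against 160 ± 3.39 FPKM in SIO (SD, n = 2). Their order was thus the reverse, 1.30-fold higher in SII, again without overlap.

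**Figure D1:**
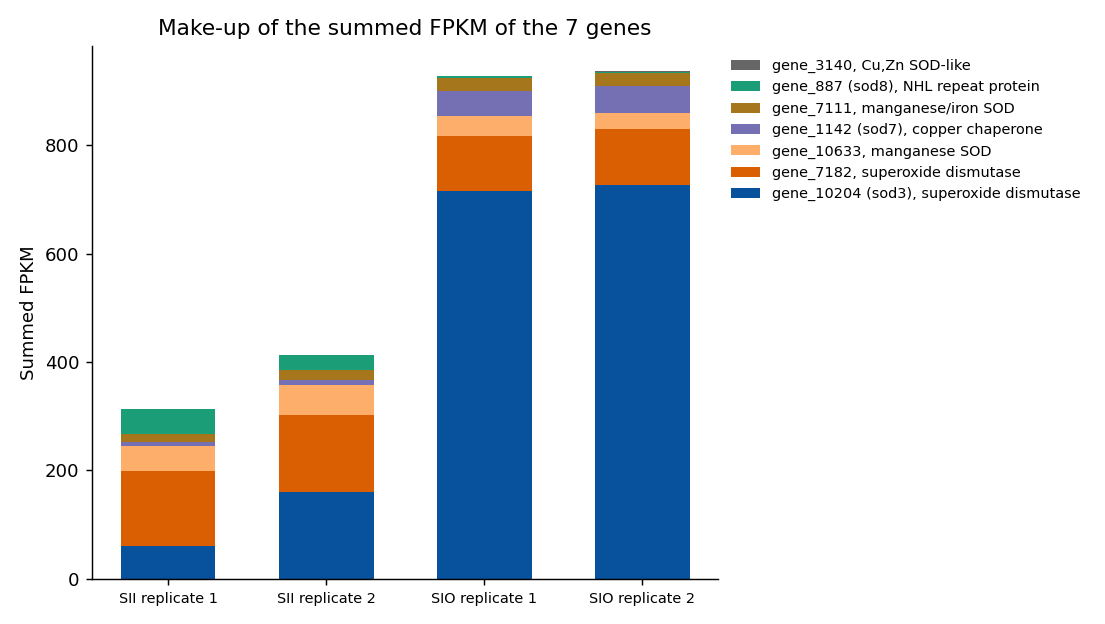
Summed FPKM of the 7 genes in each of the 4 libraries, with 1 coloured segment per gene. The bars reach 313 and 413 in SII and 927 and 936 in SIO, and the segment of gene_10204 (sod3) takes 19.3% and 38.8% of the SII bars and 77.2% and 77.5% of the SIO bars.

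Gene by gene, log2(FPKM + 1) was tested between SII and SIO with limma. A gene is called where its log2 fold change is 1 or more in size and its adjusted p (Benjamini-Hochberg, over all genes tested) is under 0.01. Both are the thresholds of the study's methods, but the study set them on another test, DEGSeq, so the calls are not like for like. By its own test the study lists sod3 and sod7 as lower in SII and sod8 as higher. A low-value filter, an FPKM of 1 or more in 2 or more libraries, passed 6 of the 7 genes. Of these 6, 1 was called higher in SII (gene_887) and 1 lower (the copper chaperone gene_1142). Over all genes tested 22.4% were called, 10.3% higher and 12.2% lower, and under median-ratio scaling between libraries the split turned to 11% higher and 8.34% lower. The median log2 fold change of the 6 genes was -0.02, beside -0.11 over all genes tested, and it was 0.07 under median-ratio scaling and 0.06 under quantile normalization. The areas did not overlap for any of the 6, but neither did they for 79.6% of all genes tested. Of the 5 annotated dismutases, gene_3140 was not tested and none of the others passed both thresholds in this fit. Among them sod3 missed by a narrow margin and was called in 4 of the 13 alternative fits.

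sod3 was the most abundant SOD gene of the hyphal area. It stood at 60.5 and 160 FPKM in SII replicates 1 and 2, and at 716 and 726 FPKM in SIO replicates 1 and 2, from 1429, 3526, 19018 and 18999 reads. All of the SIO values were above all of the SII values, and the SII libraries differed by 2.65-fold from each other. The mean level was 111 ± 70.7 FPKM in SII against 721 ± 7.18 FPKM in SIO (SD, n = 2), 6.52-fold higher in SIO. Among the 11599 genes of the table it ranked 161 and 162 in the SIO libraries, and 2224 and 976 in SII. The log2 fold change was -2.86 (standard error 0.49, 95% interval -4.16 to -1.55), with adjusted p = 0.0116 by limma, just outside the threshold of 0.01. It therefore failed on its adjusted p and not on its size, since its log2 fold change was among the lowest 2.73% of the genes tested. Without SII replicate 1 the log2 fold change was -2.16 and without SII replicate 2 it was -3.55. In both fits the gene was called by limma (adjusted p = 1.4e-05 and 2.3e-06), as were 21.6% and 24% of all genes tested as lower, the variance then coming from the close SIO libraries alone. At an adjusted p under 0.05, where 21.1% of all genes tested were called lower, sod3 was called as well. Without SIO replicate 1 or 2 the adjusted p was 0.0508 or 0.0534. Over the alternative fits with all 4 libraries the adjusted p by limma ranged from 0.00626 to 0.0547, so whether sod3 is called depends on the fit. Its direction was the same in all 13 alternative fits. In those without 1 library this was fixed, since the areas did not overlap.

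The copper chaperone sod7 was lower in SII. In yeast and animals this protein loads copper into the Cu,Zn enzyme. gene_1142 was at 6.43 and 9.78 FPKM in SII replicates 1 and 2 and at 46.6 and 50.1 FPKM in SIO replicates 1 and 2 (194, 275, 1583 and 1678 reads). The SII libraries were both low and the SIO libraries both high. The means were 8.10 ± 2.38 FPKM in SII against 48.3 ± 2.51 FPKM in SIO (SD, n = 2), 5.96-fold higher in SIO. The log2 fold change was -2.46 (standard error 0.25, 95% interval -3.12 to -1.81), with adjusted p = 0.00441 by limma. The call was lost without SIO replicate 1 (adjusted p = 0.0403) and without SIO replicate 2 (adjusted p = 0.0434), where 1 SIO library is assumed to vary like the SII area. In those fits 0.0337% and 0.0225% of all genes tested were called lower.

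The chaperone and sod3 differed between the areas by similar factors, 5.96 and 6.52. The ratio of the FPKM of sod3 to that of the chaperone was 9.42 and 16.4 in SII and 15.4 and 14.5 in SIO, so that the areas overlapped (exact two-sided permutation p = 1). By contrast, gene_3140, the only gene described as a Cu,Zn enzyme, was barely detected in either area. Its FPKM was 0.876 and 0.575 in SII and 0.432 and 0.834 in SIO, from 18, 11, 10 and 19 reads, and the areas overlapped. It did not pass the filter on low values and was not tested in the main comparison. The descriptions do not say which metal sod3 binds, so the files do not tell which dismutase the chaperone would serve.

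**Figure D2:**
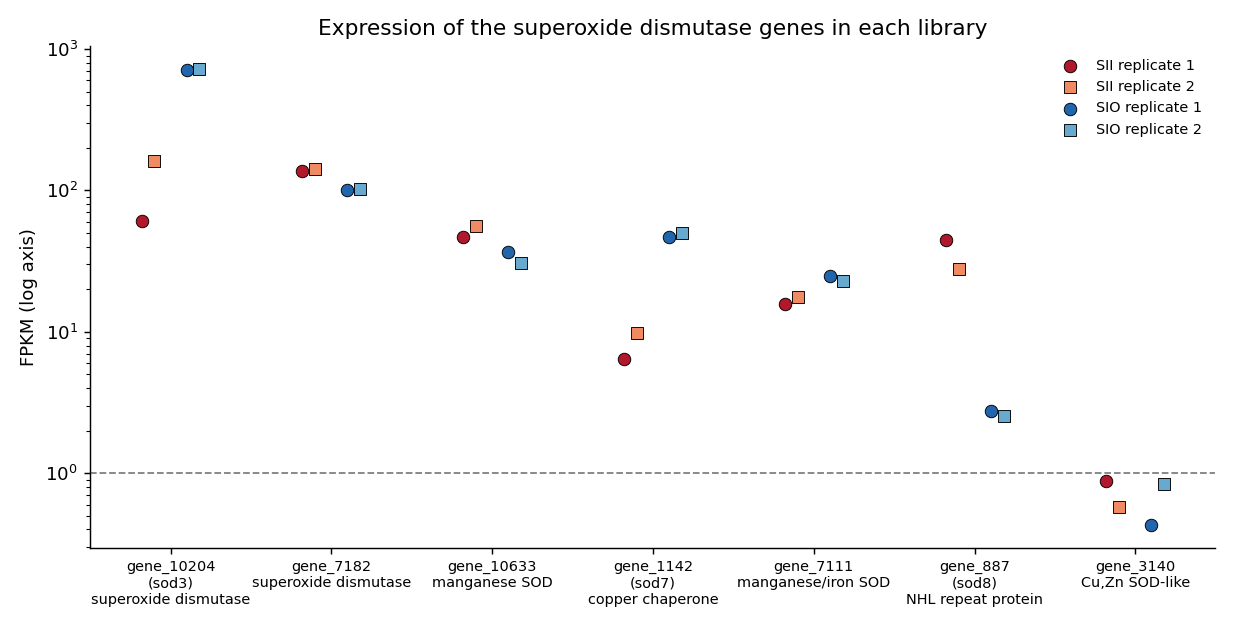
FPKM on a log axis for each of the 7 genes, ordered by mean level, with 1 point per library (red and orange for SII, dark and light blue for SIO) and a dashed line at 1 FPKM. SIO lies far above SII for sod3 and the chaperone and far below it for gene_887, the areas lie close together for gene_7182, gene_10633 and gene_7111, and gene_3140 stays under 1 FPKM in every library.

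The manganese-type and mitochondrial-type genes differed little between the areas. gene_7182, with a mitochondrial precursor as its best match, had close replicates. It was at 138 and 141 FPKM in the SII libraries and 101 and 103 FPKM in those of SIO, from 2586 to 3143 reads. Both SII values were above both SIO values. The mean was 139 ± 2.34 FPKM in SII against 102 ± 1.73 FPKM in SIO (SD, n = 2), with a log2 fold change of 0.45 (95% interval 0.08 to 0.82, adjusted p = 0.0521 by limma). Even the upper end of this interval is below the fold-change threshold.

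gene_10633, the manganese enzyme, had a similar difference. Its FPKM was 47.0 and 55.6 in SII and 36.4 and 30.9 in SIO, with both SII values above both SIO values. The means were 51.3 ± 6.07 and 33.7 ± 3.93 FPKM (SD, n = 2). The log2 fold change was 0.59 (95% interval 0.10 to 1.08, adjusted p = 0.0531 by limma). gene_7111, the manganese and iron enzyme, lay the other way. It was at 15.7 and 17.5 FPKM in the SII libraries and 24.9 and 22.8 FPKM in those of SIO, with no overlap. The means were 16.6 ± 1.28 and 23.8 ± 1.47 FPKM (SD, n = 2), and the log2 fold change was -0.50 (95% interval -0.96 to -0.03, adjusted p = 0.0736 by limma). None of these 3 genes was called under any of the 13 alternative fits. None changed direction in them, which was fixed for the fits without 1 library, since the areas did not overlap.

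The manganese-annotated genes did not keep one ratio. gene_10633 had 2.99 and 3.17 times the FPKM of gene_7111 in SII and 1.47 and 1.36 times in SIO. This within-library ratio does not depend on the scaling between libraries, and its areas did not overlap (exact two-sided permutation p = 0.333, the smallest possible). Both genes lay in opposite directions without overlap, so their ratio could not overlap either and adds no separate evidence. Ratios between single SOD genes were not among the planned comparisons. The ratio of gene_7182 to gene_10633 was 2.93 and 2.54 in SII and 2.76 and 3.34 in SIO, which overlapped (exact p = 0.667).

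gene_887, sod8, was the only gene of the set called higher in SII. NHL repeats are found in proteins of diverse function. It was at 44.9 and 28.0 FPKM in SII replicates 1 and 2 and at 2.77 and 2.56 FPKM in SIO replicates 1 and 2, from 1106, 642, 77 and 70 reads. SII replicate 1 was the highest, 1.60-fold above SII replicate 2, and both SIO libraries were low. The mean was 36.4 ± 11.9 FPKM in SII against 2.67 ± 0.151 FPKM in SIO (SD, n = 2), 13.7-fold higher in SII. The log2 fold change was 3.31 (standard error 0.28, 95% interval 2.56 to 4.07, adjusted p = 0.00355 by limma), above that of 97.9% of the genes tested. The call was lost without SIO replicate 1 (adjusted p = 0.0297) and without SIO replicate 2 (adjusted p = 0.0289), where 0.853% and 0.966% of all genes tested were called higher. If the gene's own description is followed and it is left out, no SOD gene is called higher in SII. By an unadjusted p under 0.05, all 6 tested genes pass in the limma fit, as do 5210 of the 8906 genes tested.

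**Figure D3:**
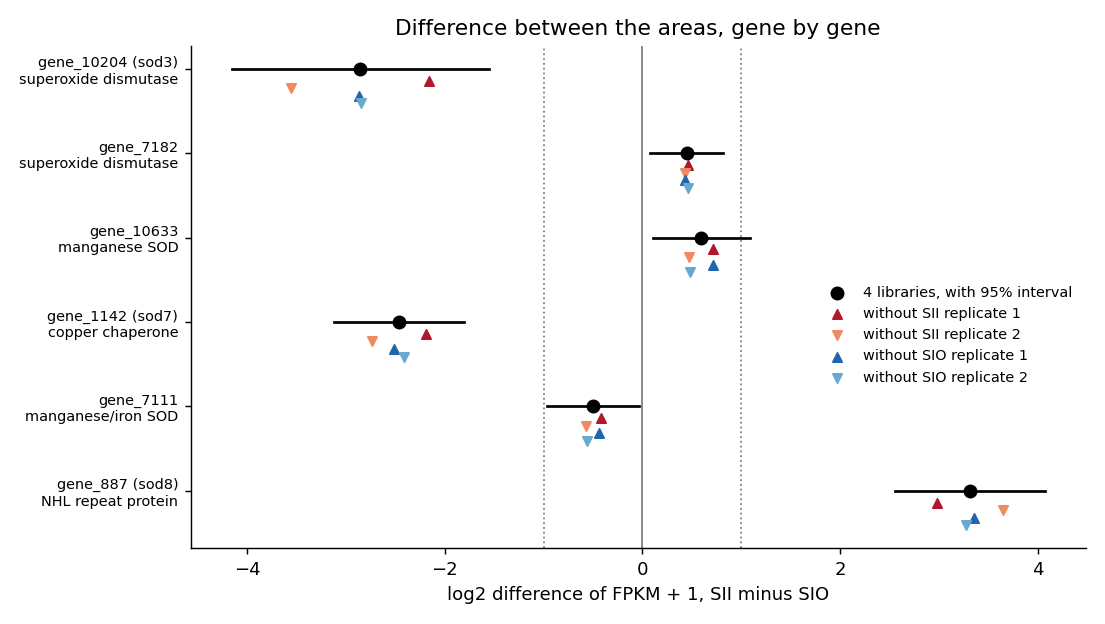
Log2 difference of FPKM + 1 between SII and SIO for the 6 genes tested, with the estimate from all 4 libraries and its 95% interval in black and the estimates without each library as coloured triangles. Dotted lines mark the fold-change threshold. gene_10204 has the widest interval, -4.16 to -1.55, and its estimate moves to -2.16 or -3.55 when an SII library is left out.

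The order of the genes by level therefore differed between the areas. In both SIO libraries sod3 came first, followed by gene_7182, the chaperone, gene_10633, gene_7111, gene_887 and gene_3140, and no neighbours in this order overlapped. In SII, sod3 and gene_7182 overlapped, with gene_7182 first in replicate 1 and sod3 first in replicate 2. They were followed in both by gene_10633, gene_887, gene_7111, the chaperone and gene_3140. The share of sod3 in the summed FPKM was 29.1% ± 13.8 in SII and 77.3% ± 0.261 in SIO (SD, n = 2, exact two-sided permutation p = 0.333). For gene_7182 the share was 39.1% ± 6.95 in SII and 10.9% ± 0.113 in SIO. gene_887 held 10.5% ± 5.34 in SII and 0.286% ± 0.0181 in SIO. Of the FPKM of all genes in the table, the 7 genes took 0.0395% ± 0.00759 in SII and 0.117% ± 0.000569 in SIO.

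The authors' mean scaled read counts for SIO imply a further SIO library. No label names it, and it was not used as a replicate. Its reads, recovered in the same way and set on the FPKM scale with the same gene lengths, put sod3 at 752 FPKM, the chaperone at 41.8 and gene_887 at 2.50. For these 3 genes it thus lay beside the 2 SIO libraries and far from SII. gene_10633 was at 28.5, gene_7111 at 23.1 and gene_3140 at 0.501. For gene_7182 it was at 123, about midway between the 2 SIO libraries and the SII libraries, above both SIO libraries by more than these differed from each other.

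Other genes with the same course were named by a rule, the 3 annotated genes nearest in log2(FPKM + 1) after centring over the 4 libraries, among 3022 with a mean FPKM of at least 10. For sod3 these were gene_1658, an aspartyl aminopeptidase of the M18 family (59.7 and 159 FPKM in SII, 700 and 743 FPKM in SIO, distance 0.05), gene_5170, annotated as saccharopine dehydrogenase (distance 0.08), and gene_9084, an adenylosuccinate synthetase of purine synthesis (distance 0.09). The distance from sod3 to the chaperone was 0.72, and 105 genes lay within 0.5. For the chaperone the nearest were gene_5321, a C-1-tetrahydrofolate synthase, with 13.5 and 20.9 FPKM in SII and 94.7 and 104 FPKM in SIO (distance 0.06), gene_770, a dihydropteroate synthase, and gene_241, similar to a 70 kDa heat shock protein. For gene_887 they were the aldo/keto reductase gene_5026, with 234 and 143 FPKM in SII and 19.3 and 17.4 FPKM in SIO (distance 0.08), gene_1483 with a Yippee domain and the acetyl-CoA hydrolase gene_4854. Within 0.5 lay 141 genes for the chaperone and 17 for gene_887.

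Genes of related functions were taken from 7 lists defined by words in the descriptions. Over the lists, limma called 6 of 70 genes tested higher in SII and 8 lower, to be read against 10.3% and 12.2% of all genes. The median log2 fold change of the 70 was 0.01, beside -0.11 over all genes tested. By an unadjusted p under 0.05 in the limma fit 40 of the 70 passed, beside 5210 of the 8906 genes tested. Unadjusted counts given below for single lists are to be read against this general rate. Each of these calls was lost when an SIO library was left out. Most calls over all genes tested were lost in the same fits, so the loss is not particular to the lists. Of the catalases, which break down the hydrogen peroxide that dismutases make, 2 of 3 tested were higher and 1 lower. gene_9464, the most abundant, was at 1645 and 1309 FPKM in the SII libraries and 380 and 303 FPKM in those of SIO (log2 fold change 2.11 with standard error 0.22, adjusted p = 0.00473). gene_4477 rose from 3.01 ± 0.325 FPKM in SIO to 64.2 ± 4.56 FPKM in SII (SD, n = 2, log2 fold change 4.02, adjusted p = 0.00142), and gene_5141, described as catalase isozyme P, was lower in SII (log2 fold change -1.34, adjusted p = 0.00689). The last was not called under median-ratio scaling. Over 4 catalase genes the summed FPKM was 7.37 and 4.36 times that of the 5 dismutase genes in SII, and 1.11 and 1.07 times in SIO (exact two-sided permutation p = 0.333). This ratio was chosen after the values were seen. As the sums above show, the dismutase side of this ratio was lower in SII for sod3 and higher in SII for the sum of the other 4 genes.

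Among 5 peroxiredoxin and peroxidase genes limma called 1 higher and 0 lower (0 lower also by limma-voom, and 1 lower at an unadjusted p under 0.05). The one called was the glutathione peroxidase-like gene_6891 (490 ± 68.3 FPKM in SII against 140 ± 6.78 FPKM in SIO, SD, n = 2, log2 fold change 1.80, adjusted p = 0.00417). The cytochrome c peroxidase, gene_6075, the most abundant, was at 650 and 483 FPKM in the SII libraries and 345 and 331 FPKM in those of SIO (adjusted p = 0.0417). The list's largest difference, in an uncalled gene named here after its values were seen, lay the other way. It was the mitochondrial peroxiredoxin PRX1, gene_8228, at 7.10 and 52.8 FPKM in the SII libraries and 453 and 558 FPKM in those of SIO (log2 fold change -4.59 with standard error 0.93, adjusted p = 0.0178), which was called lower without either SII library and at an adjusted p under 0.05. The summed FPKM of the 5 genes overlapped between the areas, at 1401 and 1172 in SII and 1097 and 1209 in SIO (exact two-sided permutation p = 0.667). The list was drawn by words and leaves out gene_1903, described as a redoxin and named here after its values were seen. It was at 4504 and 4717 FPKM in the SII libraries and 295 and 286 FPKM in those of SIO. Its log2 fold change was 3.98 (adjusted p = 0.00125 by limma). In SII it lay above the summed FPKM of the 5 genes and in SIO below, so that sum holds for the listed genes only. In the thioredoxin and glutaredoxin system 1 of 16 was higher, the thioredoxin-like gene_5830 (log2 fold change 1.62, adjusted p = 0.00560). There 2 were lower, the thioredoxin-like gene_11140 (log2 fold change -2.09, adjusted p = 0.00603) and the glutaredoxin gene_2869 (log2 fold change -1.14, adjusted p = 0.00640). The glutaredoxin was not called under median-ratio scaling (adjusted p = 0.0124). This list's largest difference was in an uncalled gene, the thioredoxin-like gene_8434, named here after its values were seen. It was at 29.8 and 110 FPKM in the SII libraries and 408 and 419 FPKM in those of SIO (log2 fold change -2.83 with standard error 0.64, adjusted p = 0.0229). The abundant thioredoxin gene_12319 had means of 3259 ± 807 FPKM in SII against 5445 ± 29.5 FPKM in SIO (SD, n = 2, adjusted p = 0.0734).

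Metal supply genes bear on the same enzymes. Of 7 copper-handling genes tested, limma called 1 higher and 0 lower. None was lower by limma-voom on recovered reads either. An unadjusted p under 0.05 with a value below 0 was found for 4 of the 7, where 5210 of the 8906 genes tested passed in either direction. The one called was gene_223, matched to a copper chaperone of cytochrome c oxidase, which serves the respiratory chain and not the dismutases. It was at 125 and 98.6 FPKM in the SII libraries and 29.8 and 27.5 FPKM in those of SIO (log2 fold change 1.92 with standard error 0.18, adjusted p = 0.00417), so that the 2 copper chaperone genes lay in opposite directions. The copper transporter with the highest mean level, gene_4312, was at 146 and 183 FPKM in the SII libraries and 183 and 172 FPKM in those of SIO (log2 fold change -0.12, 95% interval -0.59 to 0.36, adjusted p = 0.617). The list's 2 lowest fold changes were in uncalled transporters, named here after they were seen. The iron copper transporter gene_3974 was at 74.1 and 116 FPKM in the SII libraries and 222 and 233 FPKM in those of SIO (log2 fold change -1.29, adjusted p = 0.0170). gene_9062 lay at -1.75 (adjusted p = 0.0147), with 0 and 0.560 FPKM in SII, and passed the low-value filter through SIO alone. Both were called lower at an adjusted p under 0.05, as were 21.1% of all genes.

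The list named for manganese, zinc and iron transport held 13 tested genes, none of them described or matched as a manganese transporter. The supply of manganese was thus not examined. Of the 13, limma called 3 lower and 0 higher (0 higher also by limma-voom, and 3 higher at an unadjusted p under 0.05). They were the iron permease-like gene_5674 (0.890 ± 0.936 FPKM in SII against 11.7 ± 0.437 FPKM in SIO, SD, n = 2, log2 fold change -2.84, adjusted p = 0.00771), the multicopper oxidase gene_5675, matched to FET3 (log2 fold change -2.00, adjusted p = 0.00743), and gene_1560, related to ferric reductase (log2 fold change -2.41, adjusted p = 0.00322). gene_1560 was at 0 and 0.206 FPKM in the SII libraries and 4.90 and 4.78 FPKM in those of SIO. It passed the low-value filter through the SIO libraries alone, where it is high. With a pseudocount of 0.1 only gene_1560 of the 3 was called, and by limma-voom only gene_5675, so none of the 3 was called in both. The list's other ferric reductase matches were not called, gene_3028 with a log2 fold change of -0.66 (adjusted p = 0.172) and gene_12028 with -0.38 (adjusted p = 0.248). The most abundant gene of this list, the zinc and iron transporter gene_1917, was at 303 and 633 FPKM in the SII libraries and 400 and 433 FPKM in those of SIO, with overlapping areas.

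Among possible sources of superoxide, the words searched for NADPH oxidase found no gene and those for alternative routes of respiration found 2. The alternative NADH dehydrogenase gene_2359 was higher in SII, at 112 and 93.4 FPKM against 10.7 and 15.0 FPKM in SIO (log2 fold change 2.91 with standard error 0.23, adjusted p = 0.00314). Of 24 tested genes of respiratory complexes I and III, the main mitochondrial sites of superoxide formation, limma called 0 higher and 2 lower, with 0 higher also by limma-voom and 5 higher at an unadjusted p under 0.05. These 2 were the complex I subunits gene_979 and gene_7173 (log2 fold change -1.01 for the first, adjusted p = 0.00851 and 0.00822), both close to the threshold in size, and neither was called under median-ratio scaling. gene_6813, an abundant subunit of complex III, was at 393 ± 159 FPKM in SII against 407 ± 9.12 FPKM in SIO (SD, n = 2, log2 fold change -0.11).

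**Figure D4:**
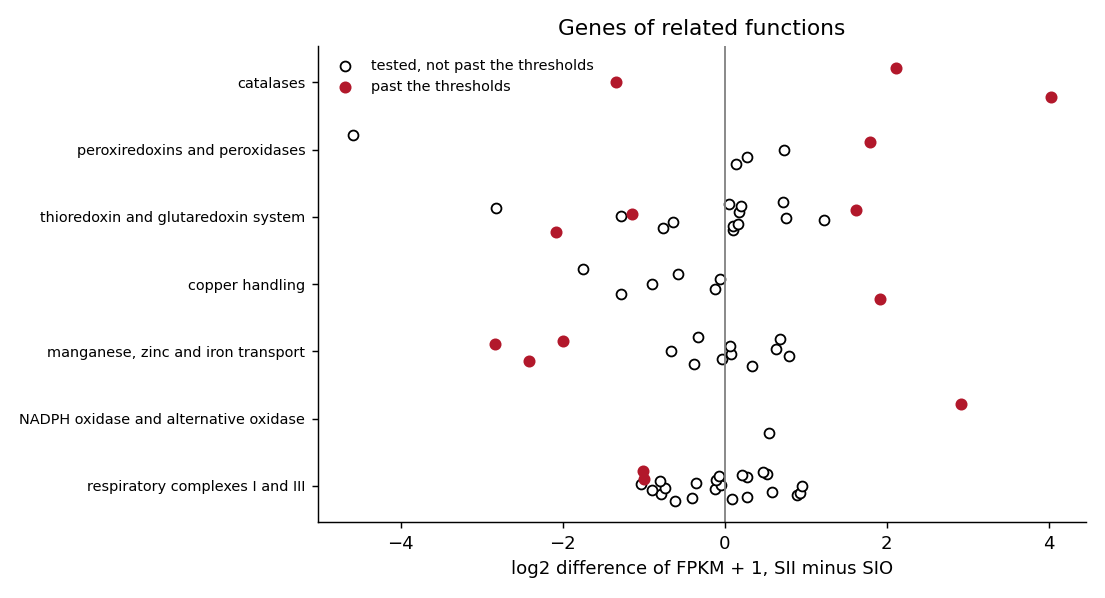
Log2 difference of FPKM + 1 between SII and SIO for the 70 tested genes of 7 related lists, 1 point per gene, filled where the gene passed the adjusted p and fold-change thresholds. Filled points lie on both sides of 0, with 6 higher and 8 lower in SII, and the catalase list holds the highest, at 4.02.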

How the data were processed

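RNA sequencing was performed on 2 libraries per area (SII and SIO) by the authors, who cleaned the paired reads and mapped them with TopHat2 2.1.0, per the labels and the paper's methods. The counting program is not given in the sources used here. FPKM per library were computed by the authors and deposited for 11599 genes. The deposited table also holds a signal per area, the mean of read counts divided by a size factor per library. The authors' fold changes and p-values in the table were not used.

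Genes with FPKM of 1 or more in 2 or more libraries (8906) entered the limma 3.58.1 fit (R 4.3.3) as log2(FPKM + 1), area as the only term, with a mean-variance trend. A fold change on this scale understates the change of low genes. Whole reads were recovered by combining the FPKM with the mean scaled counts, and 100% of values above 0 came out whole within 0.01 of a read. Totals were 24841181 and 23108142 reads in SII and 27993281 and 27579812 in SIO. This depth stands behind every FPKM. The fit was tested on simulated data. Sums and exact tests used numpy 2.4.6, pandas 2.3.3 and scipy 1.17.1, and figures matplotlib 3.10.9. FPKM-scale values of the further SIO library assume that the total of recovered reads is the FPKM denominator.

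Alternatives were another pseudocount, other filters, other scalings, no trend, a replicate block, leaving out each library, another threshold, limma-voom on recovered reads, and other sets of members. Genes named were all members, the called and the most abundant genes of each list (the 4 largest changes where more than 6 were called), and the 3 nearest in course. The members and lists were chosen with earlier results of these data known. No sequences were used here.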

Additional observations from a re-analysis of the deposited data

How the results depend on the processing

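The sum of the 7 genes and the share of sod3 kept their direction under every alternative run for them. For the fits without 1 library this was fixed in advance, since neither overlapped between the areas. Leaving out gene_887, which was higher in SII, could only widen the difference in the sum. These fits therefore add no separate evidence on direction. The difference in summed FPKM, SII minus SIO, was -568.5, and it ranged from -618.4 to -518.6 when 1 library was left out. The share of sod3 differed by -48.3 percentage points, with a range of -58.0 to -38.5 over the same fits. No tested SOD gene changed direction in any of the 13 alternative fits. The areas did not overlap for any tested SOD gene, so leaving out 1 library could not change a direction. The calls moved more. With low genes left in the test, limma called 0 genes in all, hence 0 SOD genes in either direction and 0 genes of the related lists, although 6 of 7 SOD genes and 5305 of 11599 genes had an unadjusted p under 0.05. Leaving out 1 library gave 0 to 1 SOD genes higher and 0 to 2 lower, and 0 to 9 higher and 0 to 14 lower in the related lists, with the 0 in each case coming from the fits without an SIO library. At an adjusted p under 0.05, 2 SOD genes were lower, sod3 joining the chaperone, and 14 of the 70 tested genes of the related lists. In that fit 21.1% of all genes tested were called lower. Median-ratio scaling left 3 genes of the related lists lower, beside 8.34% of all genes tested. Without gene_887, 0 SOD genes were higher. By limma-voom on recovered reads 1 SOD gene was higher and 1 lower, beside 9.93% and 12.3% of all genes tested. With the replicate number as a block, 2 SOD genes were lower, sod3 having adjusted p = 0.00626 by limma. The peroxiredoxin gene_8228 was called lower there, while the glutaredoxin gene_2869 (adjusted p = 0.0142) was not. In that fit 12.4% of all genes tested were called lower. The labels do not say that the numbers pair the libraries, and the deviations of same-numbered libraries correlated at 0.20 over genes, from 2 pairs. With 2 libraries per area, the spread between the SII libraries limits the precision for sod3, and 10 to 19 reads per library limit what can be said of gene_3140.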
